A study of Mus musculus with 17 samples.

Results

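The comparison set the second harvest of ascites against the first in mice bearing ID8 ovarian tumours. ID8 is a mouse line that the labels describe as ovarian surface epithelium. Its members were the 6 ascites libraries whose labels say harvested first or harvested second, 3 of each, out of 17 libraries in the series. ID8 cells had been placed under the bursa of the right ovary, the tumours spread into the peritoneal cavity, and the fluid was drawn with a syringe and needle in turn. The protocol also names a later tap, which was not analysed here. Both groups carry the same treatment and differ by label only in the order of harvest. The ascites labels give no animal, no day of harvest, no host strain, sex or age, and no pairing of a first with a second tap. They describe fluid with its cells, and no sort or depletion is given, so each library holds tumour cells and host cells together. The libraries are named here first tap 1 to 3 and second tap 1 to 3, after their titles. P-values measure the spread between libraries within the groups of the series, since 1 model was fitted to all 17 libraries. They cannot be read as a spread between animals, since the labels do not say that the ascites libraries came from separate animals.

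Malignant ascites is the fluid that gathers in the abdomen when ovarian cancer spreads over the peritoneum. It carries single tumour cells and clumps of them, shed mesothelial cells of the lining, and host leukocytes, mainly macrophages that live in or enter the cavity, with lymphocytes and granulocytes. Peritoneal macrophages take up dead cells and matrix, present antigen and can restrain T cells through arginase and other products. T cells recognise antigen through a receptor that signals through the CD3 chains and the kinase Lck, and their number in ovarian tumours is a classical correlate of outcome.

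The 6 libraries held 24554458 to 38860082 counts. First tap 3 and second tap 1 stood apart, with a count for 32846 and 32775 genes, against 23025 to 23714 genes in the other 4. Olfactory and vomeronasal receptor genes, which these cells are not known to use, took 0.0246% and 0.0221% of counts in those 2 libraries and 0.0049% to 0.0131% in the others. Each tap holds 1 of them. Library names in the labels begin with S or SM, and each tap holds 1 S library (first tap 1 and second tap 2) and 2 SM libraries. No pair of libraries differed by so little as sampling noise, since the chi-square per degree of freedom ran from 72.3 to 605, so none was counted as a copy.

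No gene passed the test between the taps. With edgeR's quasi-likelihood test, fitted to all 17 libraries and adjusted by Benjamini and Hochberg's method over 22671 genes, 0 genes were higher and 0 lower in the second tap (0% called in each direction at an adjusted p under 0.05), and every adjusted p was 1. At an unadjusted p under 0.05 there were 54 genes with higher and 91 with lower values in the second tap, 0.64% of those tested. That is fewer than a cutoff of 0.05 alone would give if no gene differed between the taps. The smallest unadjusted p was 0.0016. DESeq2 called 0 genes higher and 1 lower. That gene was Igkv8-19, an immunoglobulin segment, with at most 0.0765 CPM in any tap (CPM is a gene's reads relative to its library total, scaled here by the trimmed mean of M values) and an unadjusted edgeR p of 0.260. The same model called genes between each tap and the 3 orthotopic tumours, which are the solid tumours on the ovary: 156 higher and 202 lower for the first tap (0.688% and 0.891% of genes) and 117 higher and 131 lower for the second (0.516% and 0.578%). These 2 contrasts share the orthotopic libraries. The labels pair no first with a second tap, and these tests use no pairing. With the pair of neighbouring library names (S9 and S10, SM1 and SM2, SM3 and SM4) as a term in a fit of the 6 taps, a setting added after the data were seen, edgeR again called 0 genes higher and 0 lower, with 173 and 121 at an unadjusted p under 0.05.

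The data also bound how large a difference could have been. For the 10084 genes at 10 CPM or more in the higher tap, the median standard error (SE) of the log2 fold change was 0.38. In 5016 of them (49.7%) the 95% interval lay within a 2-fold change in either direction. For the rest the interval reached past a 2-fold change. The median log2 fold change over all genes tested, second tap minus first, was -0.04. In 22355 genes (98.6%) the 3 libraries of 1 tap spanned more than the difference between the tap means on the log2(CPM + 1) scale. There were 378 genes with all 3 second taps above all 3 first taps (1.67%) and 284 with all 3 below (1.25%). These shares are the background against which the counts of genes without overlap are read in what follows.

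The spread within a tap had a clear order among libraries. In principal components of the 6 libraries, component 1 held 45.9% of the variance and component 2 34.3%, and neither separated the taps. Component 3, with 7.3% of the variance, did separate them. On it first taps 1 to 3 stood at -15.4, -19.1 and -19.8, and second taps 1 to 3 at 29.9, 24.2 and 0.1. On component 1 first tap 2 stood at 100.1, second tap 1 at 21.9, and the other 4 between -55.3 and -7. On component 2 first tap 3, second tap 3 and second tap 1 stood at 47.2, 44.9 and 31.7. First tap 1 and second tap 2 stood at -61.8 and -49.7. First tap 2, at -12.3, lay between that pair and the libraries with positive values. The closest pair by correlation of log2 CPM across genes crossed the taps: first tap 1 and second tap 2, at 0.986. Within the first tap the correlations were 0.902 to 0.955, and within the second 0.963 to 0.982. These are descriptions across genes, which are not independent replicates.

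**Figure D1:**
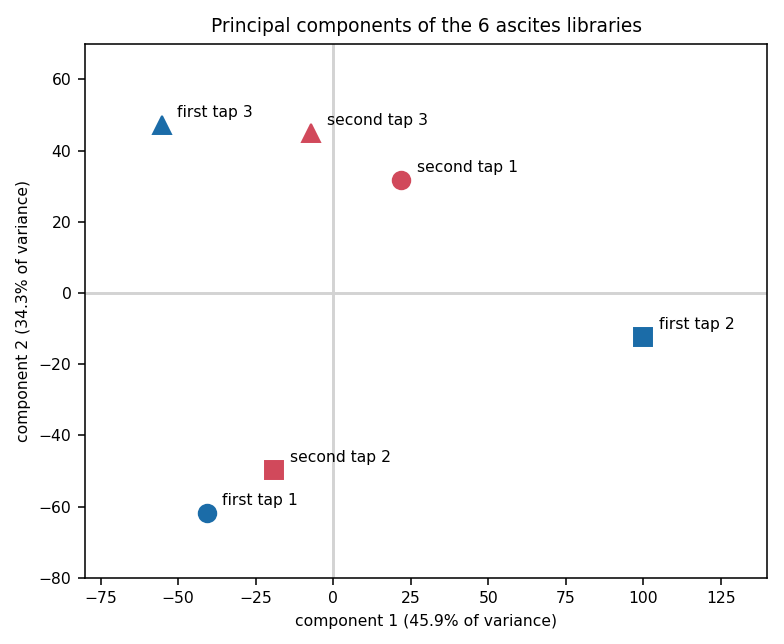
Each point is 1 ascites library on the first 2 principal components of log2 CPM, with colour for the tap and shape for the replicate number of the title. First tap 2 lies alone on the right, and first tap 1 and second tap 2 lie together at the lower left, so the colours do not separate on these 2 components.

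The genes at each end of component 1 were picked from these values, so they describe the libraries and test nothing. Stab1, a scavenger receptor of tissue macrophages, had 4309.8 CPM in first tap 2, against 98.1 and 239 CPM in first taps 1 and 3 and 1311, 523 and 884 CPM in second taps 1 to 3. Siglec1, the sialic acid receptor of resident macrophages, had 2534 CPM in first tap 2 and 109.9 to 690 CPM in the other 5. Chil3, a chitinase-like protein of alternatively activated macrophages, had 1792 CPM there and at most 32.6 CPM elsewhere. First tap 2 was thus the library with the highest values of all 3. At the other end, Clu, a secreted chaperone, had 156 CPM in first tap 2 and 946 to 3635 CPM in the others. Igfbp6, which binds insulin-like growth factor 2, had 30.8 CPM in first tap 2 and 143 to 690 CPM in the others.

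The macrophage list described the same library. Its level, the mean log2(CPM + 1) of 11 genes, was 7.07, 9.75 and 7.15 in first taps 1 to 3 and 8.70, 8.73 and 7.85 in second taps 1 to 3. The second tap lay inside the range of the first, with a mean of 8.42 ± 0.50 (SD, n = 3) against 7.99 ± 1.52 (SD, n = 3). The orthotopic tumours stood at 4.97 to 5.49 and the cultured line at 0.44, so macrophage genes were at high values in all 6 taps. In such bulk samples fewer cells of a type and less RNA per cell cannot be told apart. Csf1r, the receptor for the growth factor that macrophages need, had 183, 1489.9 and 241 CPM in the first taps and 858, 596 and 564 CPM in the second. Its log2 fold change was 0.08 ± 0.65 (SE), and the value turned below 0 when any of first tap 1, first tap 3 or second tap 1 was left out, at -0.36, -0.31 and -0.14. None of the 11 genes passed, none lay without overlap, and the median log2 fold change was 0.06. Without first tap 2 that median was 1.34.

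The list levels of macrophage subsets overlapped between the taps, and no gene of them passed. The list of alternatively activated macrophages, with Arg1 (arginase), Mrc1 (the mannose receptor) and Cd163 (a haemoglobin scavenger), stood at 4.99, 8.11 and 5.08 in the first taps and 7.06, 6.33 and 6.20 in the second (median log2 fold change 0.04). Retnla, a secreted protein of that state, had 4.19, 37.6 and 5.89 CPM in the first taps and 89.4, 6.75 and 52.1 CPM in the second, so high and low libraries occurred in both. Large peritoneal macrophages, the resident cells marked by Gata6 and Timd4, had a list level of 5.39 to 6.34 in the first taps and 5.47 to 6.58 in the second. Timd4, a receptor for dying cells, ranged from 6.74 to 19.4 CPM in the first taps and 8.92 to 24.5 CPM in the second. The list of small peritoneal macrophages and monocytes spread most within the first tap, from 3.10 to 6.30, with 4.01 to 4.97 in the second. Ccr2, the chemokine receptor by which monocytes leave the marrow, had 63.6, 212 and 25.2 CPM and then 219, 139 and 101 CPM. Among 7 genes of MHC class II presentation, 6 had a positive fold change with a median of 0.22. Cd74, the chain that guards the class II groove, ranged from 193 to 947 CPM in the first taps and from 450 to 806 CPM in the second. Without first tap 2 the median log2 fold changes of these lists were 1.59 (alternatively activated), 0.77 (large peritoneal), 1.33 (small peritoneal and monocyte) and 1.08 (MHC class II), against 0.04, 0.07, -0.15 and 0.22 with all 6 libraries. The large peritoneal median was -0.54 without second tap 2.

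Genes of the ovarian surface and mesothelium were at their lowest where macrophage genes were at their highest. Their level over 12 genes was 7.03, 4.72 and 8.75 in the first taps and 7.08, 6.67 and 8.10 in the second. First tap 2 was the lowest and first tap 3 the highest, with all second taps between them. Upk3b, a membrane plaque protein of mesothelium, had 557, 62.4 and 2407 CPM in the first taps and 585, 570.1 and 1423 CPM in the second. Its log2 fold change of -0.23 ± 1.32 (SE) is therefore the difference of 2 wide groups, and it became 1.47 without first tap 3. Msln, the surface glycoprotein mesothelin, ranged from 44.0 to 584 CPM in the first taps and from 90.9 to 292 CPM in the second. Wt1, a transcription factor of mesothelium and ovarian carcinoma, ranged from 139.7 to 609.6 and from 407 to 600 CPM. The list's median log2 fold change was -0.26, with 9 of 12 genes negative, and it became 1.53 without first tap 3 and 1.66 without both libraries with the most genes detected. The cultured line stood at 6.16, and ID8 cells and host mesothelium cannot be told apart by these genes.

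**Figure D2:**
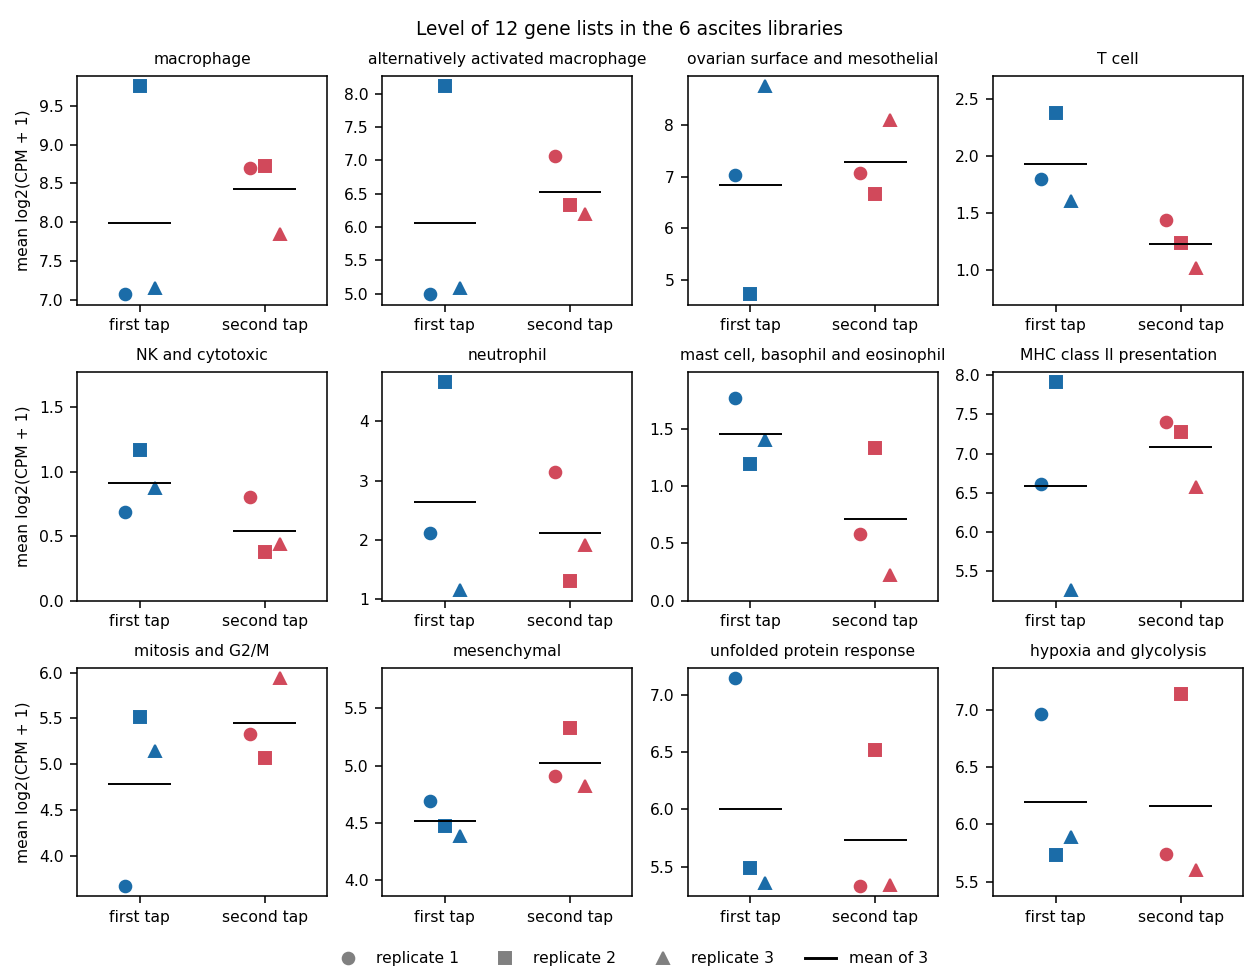
Each panel gives the mean log2(CPM + 1) of 1 gene list in the 6 libraries, with a bar at the mean of 3 and a y axis of its own. In the macrophage panel first tap 2 stands at 9.75 above all second taps while the other first taps stand below them, and in the T cell panel all 3 second taps stand below all 3 first taps.

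Component 2 divided the libraries into 2 sets with the genes of each at very different values. Again these genes were picked from the values and carry no test. At the positive end, 12 genes had a median of 98.3 CPM in first tap 3, 68.9 CPM in second tap 3 and 24.3 CPM in second tap 1, and 1.09 to 1.99 CPM in the other 3. Lrp2, the endocytic receptor megalin, had 585, 547 and 118 CPM in those 3 libraries and 1.86 to 4.41 CPM in the rest. Eln, the matrix protein elastin, had 586, 585 and 173 CPM against 5.63 to 8.84 CPM. Krt14, a basal keratin, had 84.1, 57.1 and 27.9 CPM against 0.858 to 1.89 CPM. Abcb1b, a drug efflux pump, had 249, 211 and 64.9 CPM against 6.26 to 20.1 CPM. So each of these genes was high in 1 of 3 first taps and 2 of 3 second taps.

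At the negative end, 12 genes had a median of 88.4 CPM in first tap 1 and 56.6 CPM in second tap 2, 11.1 CPM in first tap 2, and 2.37 to 2.56 CPM in the other 3. Flt1, a receptor for vascular endothelial growth factor, had 247 and 274 CPM in the 2 high libraries, 35.5 CPM in first tap 2, and 9.33 to 11.8 CPM in the rest. Hmga2, a chromatin protein of fetal and tumour cells, had 27.5 and 27.8 CPM, 16.97 CPM in first tap 2, and 0.331 to 0.918 CPM in the rest. Gpc1, a cell surface proteoglycan, had 460.1 and 446 CPM against 16.5 to 56.0 CPM. The 2 high libraries are the S libraries of the taps, 1 from each harvest. In the cultured line Lrp2 had 2.62 CPM, Eln was at 0, and Flt1, Hmga2 and Gpc1 had 16.8, 124 and 199 CPM. Other genes of each end stood otherwise there. The 12 positive-end genes ran from 0 to 115.3 CPM in the line, with a median of 1.36 CPM. The 12 negative-end genes ran from 0.159 to 199 CPM, with a median of 13.7 CPM. The library name of the cultured line also begins with S. The part of the library name in these sets was not tested.

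**Figure D3:**
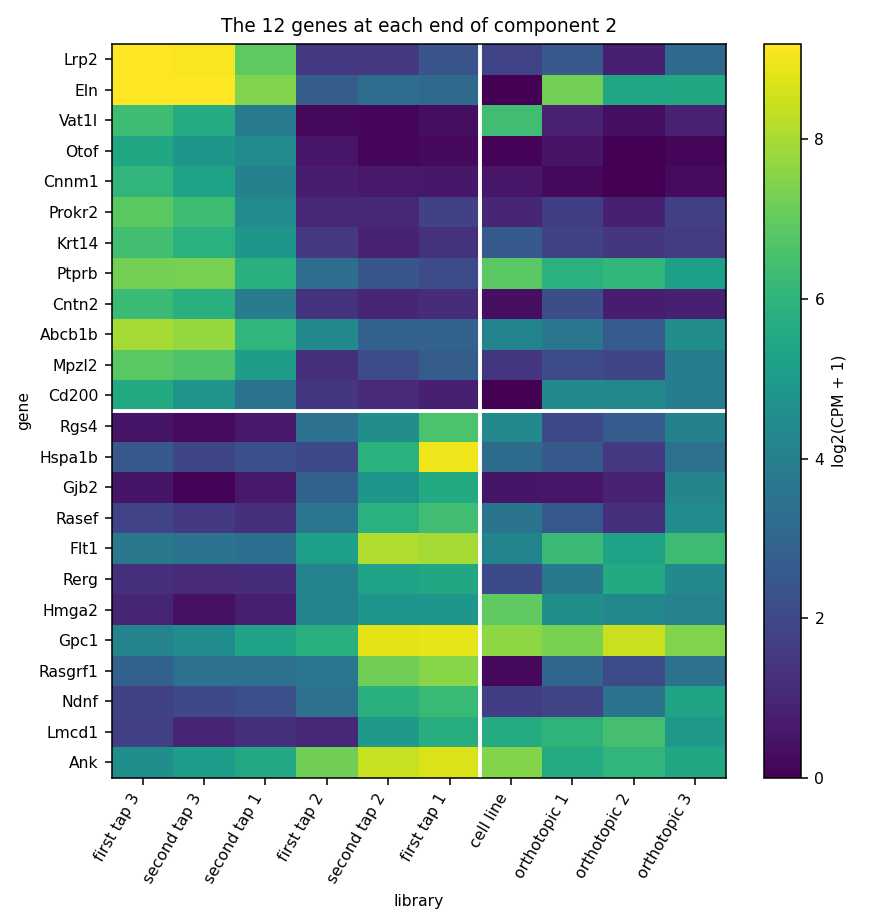
Colour gives log2(CPM + 1) of the 12 genes at each end of component 2 (rows) in the 6 taps, the cultured line and the 3 orthotopic tumours (columns). First tap 3, second tap 3 and second tap 1 are bright in the upper block and dark in the lower one, and second tap 2 and first tap 1 show the opposite.

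Of the lists, that of T cells had the largest share of members with lower values in all 3 second taps. Of 16 genes, 10 had every second tap below every first tap (62.5%, against 1.25% of all genes), 14 had a negative log2 fold change, and the median was -1.62. None passed the threshold, and the genes are not independent, since T cells share them. The list level was 1.80, 2.38 and 1.61 in the first taps and 1.44, 1.24 and 1.02 in the second, 1.93 ± 0.40 against 1.23 ± 0.21 (SD, n = 3 each). Cd3e, a signalling chain of the T cell receptor, had 97, 167 and 43 counts in the first taps and 12, 35 and 10 in the second. In CPM this was 2.66, 6.31 and 1.64, then 0.355, 1.00 and 0.367. Its log2 fold change was -2.60 ± 0.90 (SE), with an unadjusted p of 0.0135 and an adjusted p of 1 by edgeR. Cd8a, the co-receptor of cytotoxic T cells, had 155, 155 and 52 counts and then 41, 40 and 12, a log2 fold change of -2.10 ± 0.99 (SE). Cd4, the co-receptor of helper T cells, had 98, 79 and 56 counts and then 42, 44 and 2. Lck, the kinase that starts receptor signalling, had 146, 141 and 73 counts and then 50, 33 and 46, a log2 fold change of -1.56 ± 0.74 (SE). Groups did not overlap for any of these 4 genes in CPM, but the second tap values rest on few reads.

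The 6 other genes without overlap were Cd3d, Cd3g and Cd247, which are further receptor chains, Cd8b1, and the surface receptors Cd2 and Cd5. Cd3d had 26, 18 and 21 counts and then 13, 2 and 4. Cd247 had 52, 93 and 40 counts and then 48, 26 and 32. Cd8b1 had 58, 52 and 27 counts and then 11, 34 and 0. For Cd247 and Cd8b1 the taps thus overlapped in counts and not in CPM, so their order rests on the scaling of the libraries. The 6 genes with overlap included Cd28, a costimulatory receptor, whose log2 fold change was 0.84 ± 0.82 (SE), with 2.14, 6.24 and 3.44 CPM in the first taps and 11.8, 2.89 and 6.46 CPM in the second. Tcf7, a transcription factor of naive and memory T cells, had 33.3, 20.5 and 24.0 CPM and then 30.2, 28.2 and 23.7 CPM. Foxp3, the factor of regulatory T cells, had 0.986, 4.88 and 2.22 CPM and then 2.66, 0.801 and 1.84 CPM. Icos, Zap70 and Il7r also overlapped. Il7r, the interleukin 7 receptor, had 11.01, 16.9 and 2.75 CPM and then 3.55, 4.78 and 1.36 CPM. So T cell genes did not all stand in the same order. Among genes outside the list, chosen after their values were seen, Themis and Trbc2 also lay lower without overlap, at 1.03 to 4.72 against 0.110 to 0.533 CPM for Themis, while Trac, the receptor's alpha constant segment, overlapped at 1.95 to 2.80 against 1.12 to 2.40 CPM.

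Without both libraries with the most genes detected, 13 of the 16 T cell genes lay lower without overlap, where 10.7% of all genes did with 2 libraries a tap. Among the SM libraries alone, a comparison added after the data were seen, the count was 11 of 16 (8.28% of all genes). Leaving out each library in turn gave 9 to 12 of 16, where 3.78% to 5.86% of all genes lay lower without overlap. With fewer libraries in a tap that share is larger than the 1.25% of the main fit, so these counts are not set against 1.25%.

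**Figure D4:**
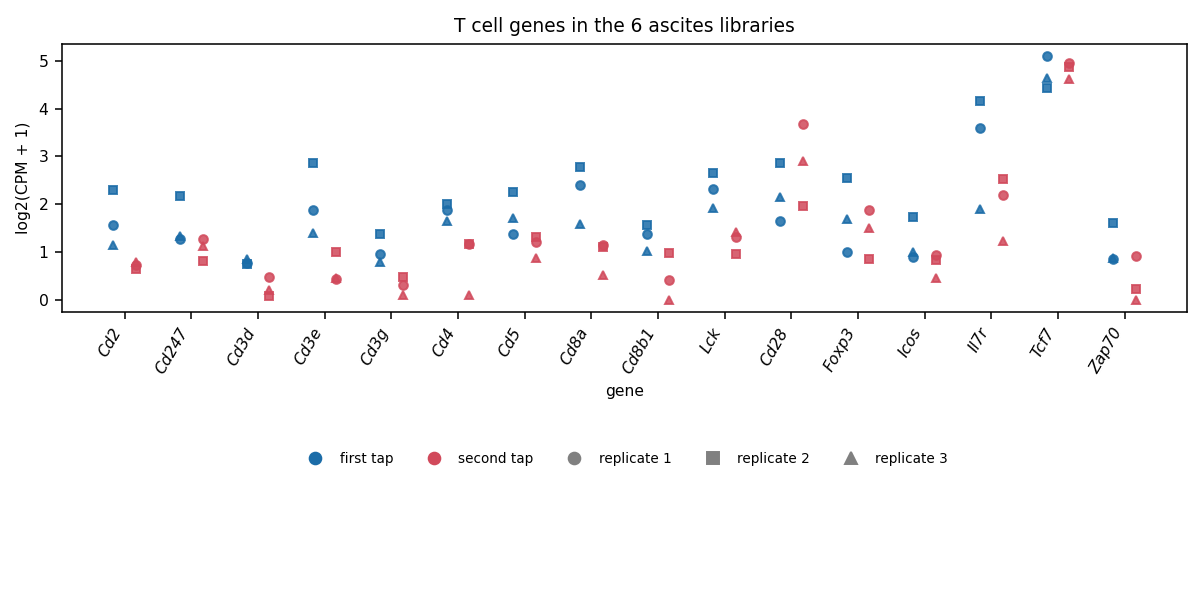
Each symbol is log2(CPM + 1) of a T cell gene in 1 library, blue for the first tap and red for the second, with genes that do not overlap on the left. Cd3e and Cd8a show all red symbols below all blue ones, while Cd28 and Tcf7 on the right do not.

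Promoter letters are shown for 3 of the 10 genes in which all second taps lay below all first taps. The 3 genes and the length of each stretch were set by hand. Only an entry with the motif named next in that stretch was used, so the matches shown are there by choice. The motif AGGAAG, the core to which ETS factors such as Ets1 of lymphocytes can bind, was searched on both strands of the 250 bases before each start in RefSeq's table of GRCm38.p6. Of the 10 genes without overlap 7 had an entry, and 5 of the 7 held a match in any of their entries. Of all 32851 promoter entries, 29.5% held one. The former is counted by gene and the latter by entry, so they are unlike measures and were not compared. On the opposite strand the motif reads CTTCCT. A match is a run of letters and was not tested as a site. The stretches lie at chr9:45009612-45009651, chr19:10738975-10739094 and chr4:129573642-129573741, all on the minus strand and read 5′ to 3′ towards the start, with the match in capitals.
Cd3e: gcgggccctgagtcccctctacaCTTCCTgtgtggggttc
Cd5: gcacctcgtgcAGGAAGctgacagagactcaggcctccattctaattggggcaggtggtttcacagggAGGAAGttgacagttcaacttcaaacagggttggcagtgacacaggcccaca
Lck: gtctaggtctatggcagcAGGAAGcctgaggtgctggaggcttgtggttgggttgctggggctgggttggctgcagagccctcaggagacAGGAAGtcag

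Genes of NK and cytotoxic cells stood near the limit of detection. Of 12 genes, 3 had lower values in all second taps (25%, against 1.25%), 10 had a negative fold change and the median was -1.07. Nkg7, a granule membrane protein of killer cells, had 40, 72 and 38 counts in the first taps and 22, 12 and 4 in the second, a log2 fold change of -2.18 ± 0.78 (SE). Gzmb, the protease granzyme B, had 6, 53 and 17 counts and then 3, 4 and 0. Prf1, the pore protein perforin, had 40, 39 and 23 counts and then 25, 20 and 9. The killer cell receptor gene Ncr1 had 0, 4 and 1 counts and then 11, 0 and 0, which shows no order at this depth. The list level was 0.69, 1.17 and 0.87 in the first taps and 0.80, 0.38 and 0.44 in the second, so second tap 1 overlapped. Without second tap 1 the median was -2.06. Ctla4, an inhibitory receptor of T cells, was the single one of 15 checkpoint and suppression genes without overlap (6.67%, against 1.25%). It had 0.904, 0.605 and 0.382 CPM and then 0.266, 0.114 and 0 CPM. Pdcd1 and Cd274, the inhibitory receptor PD-1 and its ligand, overlapped at 1.13 to 12.9 against 3.58 to 6.68 CPM and 16.5 to 49.4 against 14.3 to 42.0 CPM.

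B cell genes did not follow the T cell order. Their level over 11 genes was 2.99, 2.31 and 2.67 in the first taps and 3.27, 1.83 and 2.68 in the second, and the median log2 fold change was -0.12. Neutrophil genes had a median of -1.52 over 12 of 13 listed genes (Camp was below the filter), with 11 negative and 0 without overlap. Their level was 2.11, 4.66 and 1.15 in the first taps and 3.15, 1.31 and 1.91 in the second. Mmp8, neutrophil collagenase, had 4.49, 57.2 and 0.535 CPM and then 2.19, 1.37 and 0.808 CPM. Retnlg, a secreted neutrophil protein, had 6.05, 63.4 and 1.11 CPM and then 6.16, 0.343 and 3.82 CPM. First tap 2 alone held the high values of both genes, and without it the list median was 0.70.

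Mast cell genes were at low values in 2 of the 3 second taps. The list of mast cells, basophils and eosinophils stood at 1.77, 1.19 and 1.40 in the first taps and 0.58, 1.33 and 0.22 in the second, with a median log2 fold change of -1.45 over 11 of 12 listed genes (Mcpt8 was below the filter). Tpsb2, a mast cell tryptase, had 16.3, 7.11 and 6.31 CPM in the first taps and 10.9 CPM in second tap 2, and was at 0 in second taps 1 and 3. Cpa3, mast cell carboxypeptidase, had 13.3, 3.82 and 5.70 CPM and then 0.414, 7.46 and 0.0735 CPM. Second tap 2 therefore lay within the first taps for both genes, and without it the list median was -2.61. The median was -0.88 without first tap 1, -0.93 without second tap 3 and -3.36 with the replicate number as a block. Fcer1a, the alpha chain of the IgE receptor, was the 1 gene without overlap (9.09%, against 1.25% of all genes). It had 1.53, 0.680 and 0.574 CPM and then 0.0296, 0.486 and 0 CPM.

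Cell cycle genes had higher values in the second tap, by less than the spread. All 20 genes of mitosis had a positive log2 fold change, with a median of 0.47, but 1 of them, Ube2c, lay without overlap (5.0%, against 1.67% of all genes). The list level was 3.67, 5.52 and 5.15 in the first taps and 5.33, 5.07 and 5.94 in the second, and first tap 1 was the lowest library. Mki67, the antigen of dividing cells, had 88.4, 491 and 357 CPM and then 391, 322 and 558 CPM. Kif11, a spindle motor, had 26.4, 78.3 and 116 CPM and then 106, 72.8 and 220 CPM, a log2 fold change of 0.85 ± 0.75 (SE). Without first tap 1 the median was 0.11, without second tap 3 it was 0.15, and without first tap 2 it was 0.92. Among 18 genes of DNA replication 14 were positive, with a median of 0.34 (0.04 without second tap 3 and 0.67 without first tap 2). Mcm2 and Mcm6, subunits of the replicative helicase, and Gins2, a helicase partner, lay higher without overlap (3 of 18, 16.7%, against 1.67% of all genes). Mcm2 had 56.6, 52.8 and 56.5 CPM and then 56.6, 73.6 and 82.8 CPM, so that first tap 1 and second tap 1 were nearly equal. Uhrf1, which maintains DNA methylation, overlapped at 20.9 to 61.1 against 49.9 to 95.6 CPM.

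Genes of the mesenchymal and fibroblast lists, which share members, also stood somewhat higher in the second tap. The study asks how epithelial or mesenchymal ID8 cells are at each site, and here the question is whether that moved between harvests. The mesenchymal level over 20 genes was 4.69, 4.47 and 4.38 in the first taps and 4.91, 5.33 and 4.82 in the second, 4.51 ± 0.16 against 5.02 ± 0.27 (SD, n = 3 each). These levels did not overlap, and the median log2 fold change of 0.48 became 0.14 without second tap 2. A single gene of the 20 lay without overlap (5.0%, against 1.67%), and none passed. That gene was Col1a2, a chain of type I collagen, at 24.1, 15.1 and 10.2 CPM and then 47.2, 70.002 and 58.2 CPM, a log2 fold change of 1.83 ± 0.69 (SE) with a 95% interval of 0.33 to 3.33. Its partner chain Col1a1 overlapped, at 50.3, 61.8 and 5.32 CPM and then 55.7, 160.2 and 46.5 CPM. Col3a1, type III collagen, had 21.4, 20.03 and 3.25 CPM and then 23.9, 67.9 and 14.9 CPM. Vim, the intermediate filament of mesenchymal cells, had 4024, 1039 and 822 CPM and then 1211, 2773 and 781 CPM, and followed no order by tap. Thy1, a surface protein of fibroblasts and of T cells, had 3.31, 8.47 and 2.52 CPM and then 1.78, 2.60 and 0.771 CPM, a log2 fold change of -1.47 ± 0.56 (SE).

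The fibroblast list, which shares its collagens, Pdgfrb and Fap with the mesenchymal list, stood at 3.52, 3.15 and 2.94 in the first taps and 3.79, 4.29 and 3.65 in the second, with a median log2 fold change of 0.79 over 10 genes (0.30 without second tap 2). The orthotopic tumours stood at 6.12 to 7.12, above all 6 taps. Pdgfra, a receptor of fibroblasts and mesothelium, had 27.3, 14.1 and 101 CPM and then 50.9, 32.0 and 90.2 CPM. The part of stromal cells in the collagen values was not tested. Lama4, a laminin chain of vessel walls, had 4.30, 3.40 and 13.3 CPM and then 52.6, 9.84 and 33.0 CPM, a log2 fold change of 2.18 ± 0.69 (SE) with an unadjusted edgeR p of 0.00797, and overlapped through second tap 2. The endothelial list stood at 1.76 to 2.24 in the first taps and 1.89 to 2.26 in the second.

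Epithelial genes and the transcription factors of the epithelial to mesenchymal transition did not separate the taps. The epithelial level over 24 genes was 3.08, 2.06 and 3.12 in the first taps and 2.76, 2.99 and 2.74 in the second, with a median log2 fold change of -0.10 and 0 genes without overlap. Cdh1, the adhesion molecule of epithelial junctions, had 37.8, 14.8 and 14.8 CPM and then 5.74, 26.1 and 8.998 CPM. Epcam, an epithelial surface protein, had 16.0, 1.85 and 4.70 CPM and then 5.80, 10.98 and 4.77 CPM. Both were highest in first tap 1 and next highest in second tap 2. The 9 transcription factors stood at 3.10 to 3.35 and 3.05 to 3.47. Snai1, a repressor of Cdh1, had 1.81, 1.47 and 0.956 CPM and then 1.01, 1.14 and 0.808 CPM. Zeb2, a repressor that macrophages also express, ranged from 160 to 1443 CPM and from 456 to 822 CPM, and was highest in first tap 2.

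Stress genes were high in particular libraries. The unfolded protein response list, which covers the reply to misfolded protein in the endoplasmic reticulum, stood at 7.15, 5.49 and 5.36 in the first taps and 5.33, 6.52 and 5.34 in the second. Atf4, its amino acid response factor, had 966, 87.8 and 111 CPM and then 129, 324 and 115 CPM, and its log2 fold change of -1.04 became 0.93 without first tap 1. Hspa5, the chaperone BiP, had 885, 541 and 269 CPM and then 232, 488 and 318 CPM. The hypoxia and glycolysis list stood at 6.97, 5.73 and 5.89 and then 5.74, 7.14 and 5.6. Vegfa, the vessel growth factor, had 538 CPM in first tap 1 and 849 CPM in second tap 2, against 25.2 to 79.7 CPM in the other 4. First tap 1 and second tap 2, the S libraries, were thus the high ones in both lists.

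Immediate early genes, which cells switch on within minutes of a signal or of handling, had a median log2 fold change of -0.10 over 18 genes. Dusp1, the phosphatase that shuts off stress kinases, was the 1 gene of them without overlap (5.56%, against 1.25%). It had 170, 246 and 95.6 CPM in the first taps and 66.1, 68.1 and 78.4 CPM in the second, and all 3 second taps lay close together. Its log2 fold change was -1.27 ± 0.43 (SE), with a 95% interval of -2.21 to -0.33, an unadjusted p of 0.0122 and an adjusted p of 1 by edgeR. Atf3 had 112, 33.4 and 17.6 CPM and then 21.1, 18.3 and 14.0 CPM, and Fosb had 73.4, 29.6 and 12.6 CPM and then 13.7, 21.3 and 10.2 CPM. Both code for AP-1 type factors, and for both first tap 1 was the highest. Egr1, a growth factor response gene, had 619, 207 and 111 CPM and then 478, 380.3 and 113 CPM, with no order by tap.

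The promoter of Dusp1 is shown for that gene's place among the named genes. Its length was likewise set by hand, and its entry was used because the stretch holds the motif named next. The motif TGACG, the core to which CREB and ATF factors can bind, was searched on both strands and found in 17.8% of the same 32851 promoters. Counting both strands and overlapping matches, it occurs 3 times in the 200 bases at chr17:26508473-26508672, minus strand, RefSeq GRCm38.p6, and is in capitals. The longer run of capitals holds a match on each strand, and these 2 overlap.
Dusp1: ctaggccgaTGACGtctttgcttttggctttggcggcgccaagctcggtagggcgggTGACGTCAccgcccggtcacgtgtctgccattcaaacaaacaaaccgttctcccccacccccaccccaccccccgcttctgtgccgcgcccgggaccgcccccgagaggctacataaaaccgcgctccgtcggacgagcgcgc

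By the rule for named genes (at least 2-fold apart, 10 CPM or more in the higher tap and no overlap), 12 genes stood higher and 2 lower in the second tap, although none passed the threshold. The 2 lower genes were Dusp1 and Ccrl2, a chemerin-binding receptor of macrophages and neutrophils, with 18.3, 14.6 and 9.68 CPM and then 5.65, 8.46 and 5.00 CPM. The smallest unadjusted p among the higher genes was that of Clip4, a microtubule-linked protein, at 6.52, 2.31 and 8.45 CPM and then 27.7, 11.1 and 10.9 CPM, a log2 fold change of 1.52 ± 0.57 (SE). Map3k21, a kinase of the stress kinase cascade, had 12.5, 3.55 and 20.04 CPM and then 44.6, 27.4 and 28.4 CPM. Serpinf1, the secreted factor PEDF that inhibits vessel growth, had 4.63, 3.63 and 8.68 CPM and then 18.5, 11.3 and 10.8 CPM. Inpp5j, a lipid phosphatase, had 38.7, 17.5 and 50.3 CPM and then 117, 72.1 and 62.4 CPM. In these 4 genes first tap 2 was the lowest library and second tap 1 the highest.

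The 7 remaining higher genes were Acsbg1, Gprasp2, Sumo2, Plxnb3, Etnk2, Hepacam and Tmem255a, with log2 fold changes of 1.02 to 1.35. Acsbg1, which activates long fatty acids, had 14.6, 7.63 and 19.6 CPM and then 47.1, 23.7 and 28.2 CPM. Plxnb3, a semaphorin receptor, had 12.8, 24.6 and 18.0 CPM and then 64.7, 27.5 and 39.1 CPM. Sumo2, a small protein tag, had 15.8, 16.97 and 10.1 CPM and then 24.8, 42.7 and 19.2 CPM, and is uncertain because near-identical copies can share its reads. Tmem255a had 110, 50.8 and 109 CPM and then 239, 257 and 130 CPM. Ass1 and Grb10 had small p-values below that level of expression. Ass1, an enzyme of arginine synthesis, had 4.82, 2.68 and 3.02 CPM and then 9.44, 14.4 and 4.37 CPM. Grb10, an adaptor that damps insulin signalling, had 2.68, 0.756 and 1.87 CPM and then 5.21, 6.43 and 3.97 CPM. They were chosen after their values were seen.

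**Figure D5:**
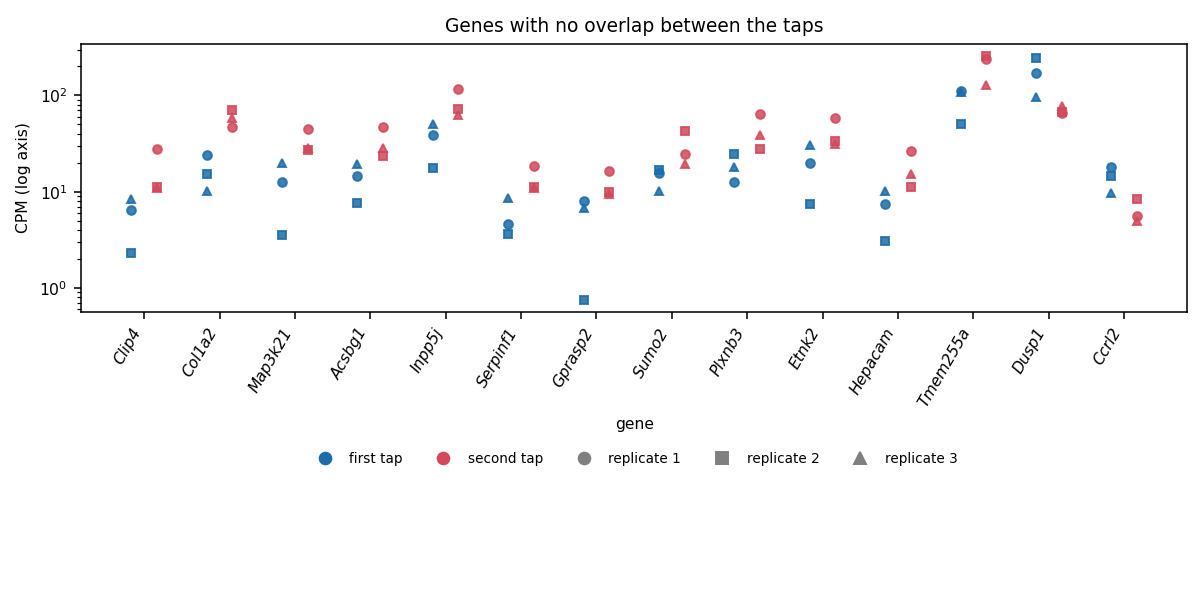
CPM on a log axis of the 14 genes that met the rule, blue for the first tap and red for the second, with shapes for replicate numbers. Red symbols stand above blue for the first 12 genes and below for Dusp1 and Ccrl2, and the gap is often smaller than the spread of the blue symbols.

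No gene of the chemokine, complement, interferon response, insulin-like growth factor and metalloproteinase lists passed the test. Among 23 chemokines 12 had a positive and 11 a negative fold change, with a median of 0.06. Ccl6, a macrophage chemokine, had 361, 2272 and 354 CPM and then 1422, 1263 and 655 CPM. Ccl2, which draws monocytes, had 25.9, 54.5 and 67.1 CPM and then 112, 60.3 and 119.9 CPM. Complement genes stood at 5.88 to 6.62 and 6.45 to 6.83 with a median of 0. C3, the central complement protein, ranged from 647 to 7580 CPM in the first taps and from 2560.3 to 4985 CPM in the second. Interferon response genes had a median of -0.38 over 24 genes, with 19 negative and 0 without overlap. Without first tap 2 the medians were 1.06 (chemokines), 1.06 (complement) and 0.23 (interferon response). Oasl2, an interferon response gene, was highest in first tap 3 at 801 CPM and in second tap 3 at 415 CPM. The insulin-like growth factor genes stood at 4.77 to 6.30 and 6.10 to 6.24, with Igf1 at 22.8, 74.1 and 44.8 CPM and then 185, 34.5 and 65.8 CPM. Metalloproteinases and their inhibitors had a median of 0.28, and Mmp12, macrophage elastase, had 6.98, 2.57 and 0.803 CPM and then 24.5, 5.09 and 19.7 CPM.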

How the data were processed

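Per the labels' protocols, RNA was isolated by Trizol, and strand-specific total RNA libraries followed a changed NEBNext Ultra II procedure. The deposited values are whole-number counts of reads per gene for 43629 Ensembl genes. The submitters' processing notes name HISAT, HISAT2, featureCounts and DESeq2, with no versions, and both hg19 and mm39 as builds, so no coordinates were taken from the files. The promoter sequences, with their coordinates, are from RefSeq GRCm38.p6. A single column (1) of the deposited counts matched no sample and was not used. Symbols came from a reference table, in which 42462 identifiers matched.

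Counts were fitted in R 4.3.3 with edgeR 4.0.16 (quasi-likelihood, robust, TMM scaling, 17 libraries in 1 model by group, 9 residual degrees of freedom). Tested genes had more than 0.5 CPM in at least 2 libraries. The test was 2-sided with a threshold of 0.05 on Benjamini-Hochberg adjusted p-values. DESeq2 1.42.0, other scalings and filters, a fit of the taps alone, a replicate block and left-out libraries were alternatives, and 3 settings on library names were added after the data were seen. The scripts were tested on simulated data. List levels used log2(CPM + 1). The comparison, the 49 lists and the naming rule (up to 12 in each direction by smallest p, plus members of the lists) were chosen with earlier results of these data known. List members and other genes were also given where a group is described by its range. The lists not described in the results gave 0 genes past the threshold. The reads carry no molecular identifiers, and depth limits genes with few counts.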

Additional observations from a re-analysis of the deposited data

How the results depend on the processing

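No setting gave a gene past the threshold except DESeq2, with 1 lower. The replicate block also gave 0 higher and 0 lower, as did the pair of neighbouring library names as a term, under which Upk3b was 0.68. Same-numbered libraries 1 and 2 did not deviate together (-0.557 and -0.211), while those numbered 3 did (0.441), so the number was not used as a pairing. Under the block the NK and cytotoxic median was -1.37 and the Upk3b value 0.70. Without both libraries with the most genes detected the medians were -1.99 (T cell), -1.78 (NK and cytotoxic) and 1.66 (ovarian surface and mesothelial), with Csf1r at -0.58 and Upk3b at 1.63. The stricter filter, which left 4 NK and cytotoxic genes, gave -0.58. Leaving out each library in turn gave medians from -1.78 to -1.23 (T cell), -2.06 to -0.76 (NK and cytotoxic), -0.39 to 1.34 (macrophage), -1.03 to 1.53 (ovarian surface and mesothelial) and 0.11 to 0.92 (mitosis). Csf1r, at 0.08, was -0.01 with DESeq2 and with RLE size factors, -0.28 among SM libraries, and -0.36, -0.31 and -0.14 without first tap 1, first tap 3 and second tap 1. Upk3b was 1.47 without first tap 3. Atf4 was 0.93 without first tap 1 and 0.29 among SM libraries. Over all left-out libraries the ranges were -0.36 to 1.67 (Csf1r), -0.88 to 1.47 (Upk3b) and -1.67 to 0.93 (Atf4). The cause of these moves was not tested. The T cell count without overlap was 7 of the 13 genes left by the stricter filter (1.31% of all genes). It was 9 to 13 of 16 in the other 16 settings, where the share of all genes ran from 1.07% to 10.7%. Genes with few counts limit what can be read from the lymphocyte lists.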

Other observations

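Each first tap correlated most with a second tap, and the replicate numbers gave that partner for first tap 3 alone. First tap 1 correlated most with second tap 2 (0.986), and first tap 3 most with second tap 3 (0.977). First tap 2 correlated most with second tap 1 (0.961). From the side of the second taps, only second tap 2 was closest to its partner. Second taps 1 and 3 were closest to each other (0.982), and second tap 1 was closer to first tap 3 (0.965) than to first tap 2. After the mean of each tap was taken out, the correlation across genes was 0.673, 0.441 and 0.415 for these 3 pairs, and -0.557 and -0.211 for the same-numbered pairs 1 and 2. The 3 pairs were picked from these same values. The deviations of the 3 libraries of a tap also cancel out, so closest partners tend to come out positive. These correlations are therefore a description and no separate evidence of a pairing. In the labels the libraries of the 3 pairs carry neighbouring names: S9 and S10, SM1 and SM2, and SM3 and SM4. The labels do not say what those names mark, and whether the pairs are 2 taps of 1 animal, or libraries made side by side, cannot be told apart here.

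Blood cell genes varied between libraries of a tap. Hbb-bs, a beta globin chain, had 281, 64.0 and 10.6 CPM in the first taps and 224, 122 and 46.1 CPM in the second, and the erythroid level ranged from 1.94 to 5.07 and from 3.41 to 4.90. Platelet genes stood at 1.44 to 2.75 and 1.53 to 2.41. Clec9a, a receptor for dead cells on cross-presenting dendritic cells, had 1.75, 30.4 and 1.38 CPM in the first taps and 15.2, 2.00 and 9.48 CPM in the second. Fscn1, an actin bundler of mature dendritic cells and of tumour cells, had 177 CPM in first tap 3 and 194 CPM in second tap 3, against 19.0 to 80.0 CPM in the other 4.

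Rgs5 and Cspg4, both markers of pericytes, stood in opposite order. Rgs5 had 0.383, 0.756 and 0.459 CPM and then 0.355, 0 and 0 CPM, and Cspg4 had 4.22, 3.02 and 5.66 CPM and then 6.16, 11.9 and 8.15 CPM. The Rgs5 values lie near the limit of detection, and its order rests on 0.383 against 0.355 CPM in the closest libraries. Pmepa1, a target of TGF-beta signalling, was the 1 gene of 12 in its list without overlap (8.33%, against 1.67% of all genes). It had 15.4, 11.49 and 25.4 CPM and then 28.7, 26.7 and 28.3 CPM. Crispld2 had 48.1 CPM in first tap 2 and at most 3.07 CPM in the other 5. These 4 genes were picked after their values were seen, and none passed the test.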
